A study of Mus musculus with 3 samples.

Results

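Ago2 HITS-CLIP peaks that lay opposite an exon and came back in a second library of mouse N2A cells are described here. N2A is a neuroblastoma line, used untreated. The 3 replicates form 1 group without a control or a second antibody, and the cells were irradiated with ultraviolet light at 400 mJ/cm2 and then at 200 mJ/cm2 in 2 further rounds before immunoprecipitation with the anti-Ago2 clone 2D4. The labels do not say whether the replicates were separate cultures, so the spread between them may be technical.

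The members were selected on the peak calls themselves. A member was 86 to 200 nt wide, had its midpoint in an exon of a protein-coding gene on the opposite strand and in no GENCODE gene on its own strand, and overlapped on its own strand a peak of the same width class in at least 1 other replicate. Of 2039384 peaks in the series, 3351 met the width and antisense conditions and 175 of these also recurred, 40 in replicate 1, 56 in replicate 2 and 79 in replicate 3. Merged where they overlapped, the 175 members made 84 loci opposite 73 host genes, the host being the gene whose exon is on the other strand.

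Argonaute proteins carry a miRNA that pairs with other RNAs, mostly in 3′UTRs, through its seed, the bases next to its 5′ end. Ultraviolet crosslinking fixes Argonaute to RNA that it touches, and the strand of the read tells which of 2 overlapping transcripts was bound. A peak antisense to an exon therefore lies on RNA that runs opposite to the messenger. Such RNA is known to come from dedicated antisense transcripts, from neighbouring genes that meet tail to tail and are transcribed past each other's ends, and from copies of expressed genes placed in reverse within another gene.

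The loci opposite coding sequence can be read directly, and some are shown: 3 with the same ends in 2 or more libraries and, for contrast, 1 pair of GC-rich loci. The locus opposite Dmrt2 also had equal ends and is not printed because 31 nt of its stretch lie in an annotated UTR, compared with 6 nt for Tmem255a and 0 nt for the others shown. Each line gives the stretch covered in at least 2 libraries, 5′ to 3′ on the strand of the peak and thus the reverse complement of the host's coding strand. Capitals mark the part that remains after removal of 30 nt at either side, which is the padding of the deposited intervals.
Opposite Foxh1, chr15:76669020-76669105, plus strand: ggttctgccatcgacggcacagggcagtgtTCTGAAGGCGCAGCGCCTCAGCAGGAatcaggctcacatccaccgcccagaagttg
Opposite Tmem255a, chrX:38199489-38199628, plus strand: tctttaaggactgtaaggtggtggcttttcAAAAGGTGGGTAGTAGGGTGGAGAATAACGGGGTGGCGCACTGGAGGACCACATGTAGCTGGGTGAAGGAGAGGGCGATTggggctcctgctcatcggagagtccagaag
Opposite Hsd3b1, chr3:98853176-98853263, plus strand: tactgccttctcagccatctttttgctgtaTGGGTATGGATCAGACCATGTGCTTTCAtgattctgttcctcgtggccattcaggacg
Opposite Six5, chr7:19094642-19094729, minus strand: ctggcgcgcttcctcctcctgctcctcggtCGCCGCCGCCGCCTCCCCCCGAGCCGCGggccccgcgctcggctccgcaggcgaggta
Opposite Khnyn, chr14:55887329-55887416, minus strand: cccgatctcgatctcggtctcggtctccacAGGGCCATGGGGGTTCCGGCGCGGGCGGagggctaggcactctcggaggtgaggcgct
The coordinates and sequences are those of GRCm38.

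The replicates differed before any antisense peak was chosen. Replicate 1 had 711377 peaks, replicate 2 had 498071 and replicate 3 had 829936, and the peaks of the width class that lay in exons on the gene's own strand numbered 20906, 75106 and 91374. For every antisense exon peak there were thus 16.8 sense exon peaks in replicate 1, 111.9 in replicate 2 and 63.8 in replicate 3, so replicate 1 stood apart. Neuronal identity was checked on sense 3′UTR peaks, here and throughout peaks of 86 to 200 nt with their midpoint in an annotated 3′UTR on the strand of the gene, which 7 of 15 neuroblastoma and neuron markers had in all 3 libraries, among them Hand2, Gata2 and Gata3. Th, Dbh, Nefl and Nefm had none. Over all genes with an annotated 3′UTR, 3895 of 21734 (17.9%) had such peaks in all 3 libraries. Of the other lineages, 1 of 5 myeloid markers (Ptprc) and 2 of 5 oligodendrocyte markers (Mbp among them) had such peaks in all 3 libraries, whereas Cd68, Lyz2, Csf1r, Spi1, Mog and Sox10 had none in any, and none of 15 hepatocyte, skeletal muscle or erythroid markers was. The part of other cells in the results was not tested.

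Recurrence was rare on the antisense strand. It was met by 5.22% of antisense exon peaks, by 55.8% of sense exon peaks and by 25.3% of all peaks of 86 to 200 nt. By library, 3.21%, 8.35% and 5.51% of antisense exon peaks recurred in replicates 1, 2 and 3. These shares come from the rule and carry no test. At the lower width limit, 616 antisense exon peaks were 86 nt wide and 23 of them recurred, whereas 1481 were 85 nt wide and 24 of those overlapped a peak of the width class in another library. At the upper limit there was 1 antisense exon peak of 200 nt and 2 of 201 nt, none of which overlapped. The members had a median width of 93 nt and a range of 86 to 194 nt. Their largest overlap with a peak of another library had a median of 86 nt and a range of 4 to 169 nt, and for 54 of 175 members it was 60 nt or less, the length that the padding of 2 peaks can supply. The nearest peaks left outside were 11 that came within 10 nt of a peak in another library.

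Most loci were shared by a single pair of libraries. Replicates 2 and 3 shared 41 loci, replicates 1 and 3 shared 31, replicates 1 and 2 shared 8, and 4 loci had a peak of the width class in all 3. Only 2 loci, opposite Foxh1 and Akap9, had a member in each library. With replicate 1, 2 or 3 left out, the rule found 44, 35 and 11 loci, so that replicate 3 had a part in most of them. Agreement of 2 libraries was then set against the library that took no part in the choice. Of the antisense exon peaks found in both replicates 2 and 3, 6 of 95 (6.32%) were met in replicate 1, against 40 of 2009 (1.99%) of those found in just 1 of that pair. In replicate 2 these shares were 7 of 67 (10.4%) and 52 of 2613 (1.99%), and in replicate 3 they were 5 of 22 (22.7%) and 74 of 1896 (3.90%). The share was higher for peaks found in both libraries in 3 of 3 cases, by 4.33, 8.46 and 18.8 percentage points. These cases are not independent. The peaks found in both and met in the library left out were 9 members at 4 loci, each counted in 2 of the 3 cases. The exact two-sided sign-flip permutation test over the 3 libraries gave p = 0.25, the smallest value that 3 libraries allow, so that no comparison by this test can reach the usual threshold. The mean difference of 10.5 points fell to 4.13 points when the central parts of the peaks had to overlap, and with peaks of 90 to 200 nt it turned to -0.645 points.

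Members lay near the end of a gene on their own strand more often than single-library antisense peaks did, in each library. Within 5 kb downstream of the annotated end of a same-strand gene lay 12 of 40 members in replicate 1 (30%), 33 of 56 in replicate 2 (58.9%) and 37 of 79 in replicate 3 (46.8%). For antisense exon peaks seen in 1 library only, the shares were 19.5%, 23.1% and 21%. The means were 45.2% ± 14.5 and 21.2% ± 1.81 (SD, n = 3), a difference of 24.1 ± 12.7 percentage points that was positive in 3 of 3 libraries (exact sign-flip permutation test, two-sided p = 0.25). By the rule every recurrent locus has a peak in at least 2 libraries, so the shares of members in the 3 libraries rest in part on the same loci and are not independent, here and in each comparison below. Of the annotated exon length that could hold such a peak, 88.2 Mb, 12.6% lay in these 5 kb windows. The share of members was lowest in replicate 1, which also had the fewest sense exon peaks, and the part of that in the result was not tested. Leaving out replicate 1, 2 or 3 gave mean differences of 41, 10.5 and 22.8 points, and with peaks of 90 to 200 nt the difference was negative in replicate 1 (-9.74 points) and positive in the others. Without the 19 members opposite Gtpbp8 it was positive in all 3 libraries.

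**Figure D1:**
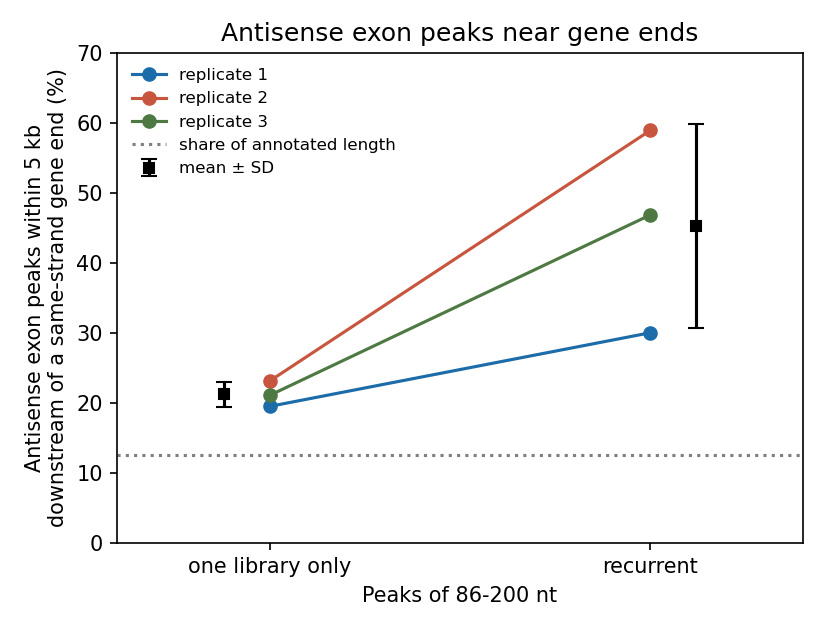
Share of antisense exon peaks of 86 to 200 nt within 5 kb downstream of a same-strand gene end, in percent, for peaks of one library only and for recurrent peaks. Peaks of one library only overlapped no peak of 86 to 200 nt in another library. Coloured points joined by a line are the 3 replicates, black squares the mean ± SD (n = 3), and the dotted line the 12.6% of eligible annotated length; the recurrent share lies above the single-library share in each replicate.

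Counted by locus, 38 of 84 (45.2%) were within 5 kb of a gene end. The first 1 kb held 22 loci (26.2%), compared with 6.20% of the 3176 single-library peaks, and beyond 20 kb there were 27 loci (32.1%) compared with 54.2%. A locus was placed by its member nearest to the gene end and a single-library peak by its own midpoint. The 22 loci came from 17 host genes. The upstream gene was protein-coding in 34 of the 38 near loci. The near loci came from 28 gene pairs, in which the member lay past the end of one gene and opposite the other. In 37 of the 38 it was opposite an exon that was the last of at least 1 transcript of the host. Such an exon is called a last exon here and below. Other transcripts of the host could run on past it, as at Phykpl and Pkd2l2. In 4 loci a member overlapped the annotated gene end itself.

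**Figure D2:**
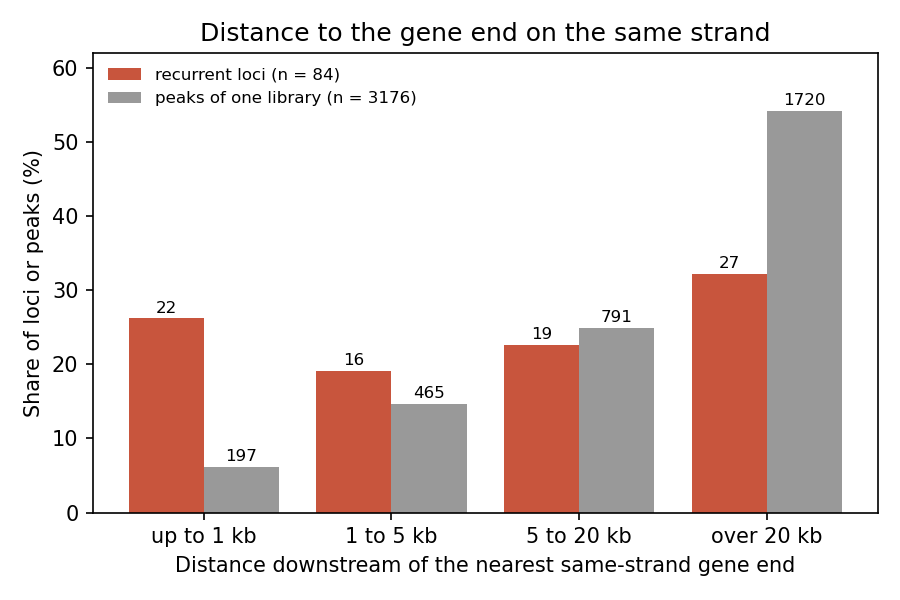
Share of recurrent loci (red, n = 84) and of single-library antisense exon peaks (grey, n = 3176) by distance from the nearest same-strand gene end upstream, in percent, with the number above each bar. A locus is placed by its nearest member. Loci are more frequent than single-library peaks in the first 1 kb, 22 loci (26.2%) against 197 peaks (6.20%), and 3 single-library peaks with no gene upstream are in no bar.

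Many upstream genes of the near loci also had Ago2 peaks in their own 3′UTR. Of 24 such genes with an annotated 3′UTR, 13 (54.2%) had a sense 3′UTR peak in all 3 libraries, compared with 147 of 451 (32.6%) upstream of single-library antisense peaks within 5 kb with 9 of 23 (39.1%) upstream of the farther loci, and with 3895 of 21734 (17.9%) over all genes. Host genes of the near loci had such peaks in 11 of 28 cases (39.3%) and hosts of the farther loci in 12 of 45 (26.7%). For hosts of single-library peaks the share was 31.1%. These shares count genes, which are not replicates, and were not tested.

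The tail-to-tail pair of Nepro and Gtpbp8 contributed the most loci. Nepro encodes a nucleolar protein of neural progenitors and Gtpbp8 a GTP-binding protein. Past the annotated end of Nepro and opposite the last exon of Gtpbp8 lay 6 loci between chr16:44737275-44737412 and chr16:44739117-44739367, with 11 members in replicate 2, 8 in replicate 3 and none in replicate 1. Their midpoints were 44 to 2035 nt beyond the Nepro end. In the first locus, peaks of 107 and 88 nt in replicate 2 met one of 106 nt in replicate 3, and the best overlap was 102 nt. Nepro had sense 3′UTR peaks of 86 to 200 nt in all 3 libraries and Gtpbp8 in none, although a narrower peak of 82 nt lay on the Gtpbp8 strand in its last exon in replicate 3. On the Nepro strand in the 4 kb past its end there were 1, 16 and 10 peaks of any width in replicates 1, 2 and 3, and on the Gtpbp8 strand 1 in each. RefSeq draws the last Nepro exon 1572 nt further than GENCODE does, and 4 of the 6 loci had all their midpoints inside it, 1 straddled the RefSeq end with members on both sides, and 1 lay beyond.

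Short windows from these loci hold seed matches of miRNAs on the list that was searched, and are shown for that reason, with the letters complementary to bases 2 to 8 of the miRNA in capitals.
Past Nepro, chr16:44737604-44737630, match to miR-15a-5p and miR-16-5p: ctaggacacTGCTGCTttctgctataa
Past Nepro, chr16:44737783-44737808, match to miR-155-5p: gagctgaaaggAGCATTAggtgttcc
Past Nepro, chr16:44738798-44738826, match to miR-29a-3p: agtctcaggacTGGTGCTtccttggtctg
The miRNAs read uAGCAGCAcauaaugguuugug (miR-15a-5p), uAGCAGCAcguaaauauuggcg (miR-16-5p), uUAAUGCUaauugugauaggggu (miR-155-5p) and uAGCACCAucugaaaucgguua (miR-29a-3p) with the seed in capitals, from RefSeq. Over all 84 loci, 23 of the 24 listed miRNAs could be searched, and 12 loci held a match on the strand of the peak compared with 15 on the opposite strand. Of the matches shown, that to miR-15a-5p and miR-16-5p lay in a peak of replicate 2 only and that to miR-29a-3p in a peak of replicate 3 only, outside the stretches that both libraries covered. The match to miR-155-5p was covered in both. The miR-15a-5p and miR-155-5p matches fell in the outer 30 nt of the peaks. A match is a description of the letters and no more.

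Pkd2l2, of the polycystin channel family, and Fam13b, a RhoGAP-domain protein, gave 3 loci on chromosome 18. Replicate 1 had members of 89 and 86 nt, replicate 2 one of 87 nt and replicate 3 of 103 and 86 nt. The nearest locus overlapped the annotated Fam13b end, with midpoints 38 and 52 nt past it, and the midpoints of the other loci began at 561 nt. RefSeq extends the last Fam13b exon by 1780 nt, and all 3 loci were inside. Fam13b had sense 3′UTR peaks of 86 to 200 nt in all 3 libraries and Pkd2l2 in none, although a narrower peak of 79 nt lay on the Pkd2l2 strand in replicate 1, in the Pkd2l2 exon opposite the nearest locus. On the Fam13b strand past its end there were 3, 7 and 12 peaks of any width in replicates 1, 2 and 3, and on the Pkd2l2 strand 1, 0 and 3.

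Gsdme, which encodes a pore-forming gasdermin, had 2 loci past the end of Mpp6, a membrane scaffold. At chr6:50200853-50201100, replicate 2 had peaks of 100 and 106 nt and replicate 3 of 113 and 97 nt. At chr6:50201125-50201250, the widths were 126 nt in replicate 2 and 95 nt in replicate 3. These loci lay 1970 to 2263 nt past the Mpp6 end, where RefSeq adds only 215 nt. The Mpp6 strand carried 1, 11 and 18 peaks in the 4 kb past its end and the Gsdme strand 1, 0 and 1.

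The autophagy gene Atg7 had 2 loci past the end of Vgll4, a cofactor of TEAD transcription factors. The first overlapped the Vgll4 end at chr6:114860381-114860632, with a peak of 132 nt in replicate 2 and peaks of 136 and 124 nt in replicate 3. The second lay at chr6:114859858-114859969, at 709 nt past the end in replicate 2 and 714 nt in replicate 3, and replicate 1 had no peak of any width on that strand in the 4 kb past the Vgll4 end. In the same window the Vgll4 strand carried 5 peaks in replicate 2 and 6 in replicate 3, and the Atg7 strand 3 in replicate 3 only. RefSeq ends Vgll4 within 7 nt of the GENCODE end. Phykpl, a lyase of modified lysine, had 2 loci 3097 to 3347 nt past Hnrnpab, an RNA-binding protein.

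**Figure D3:**
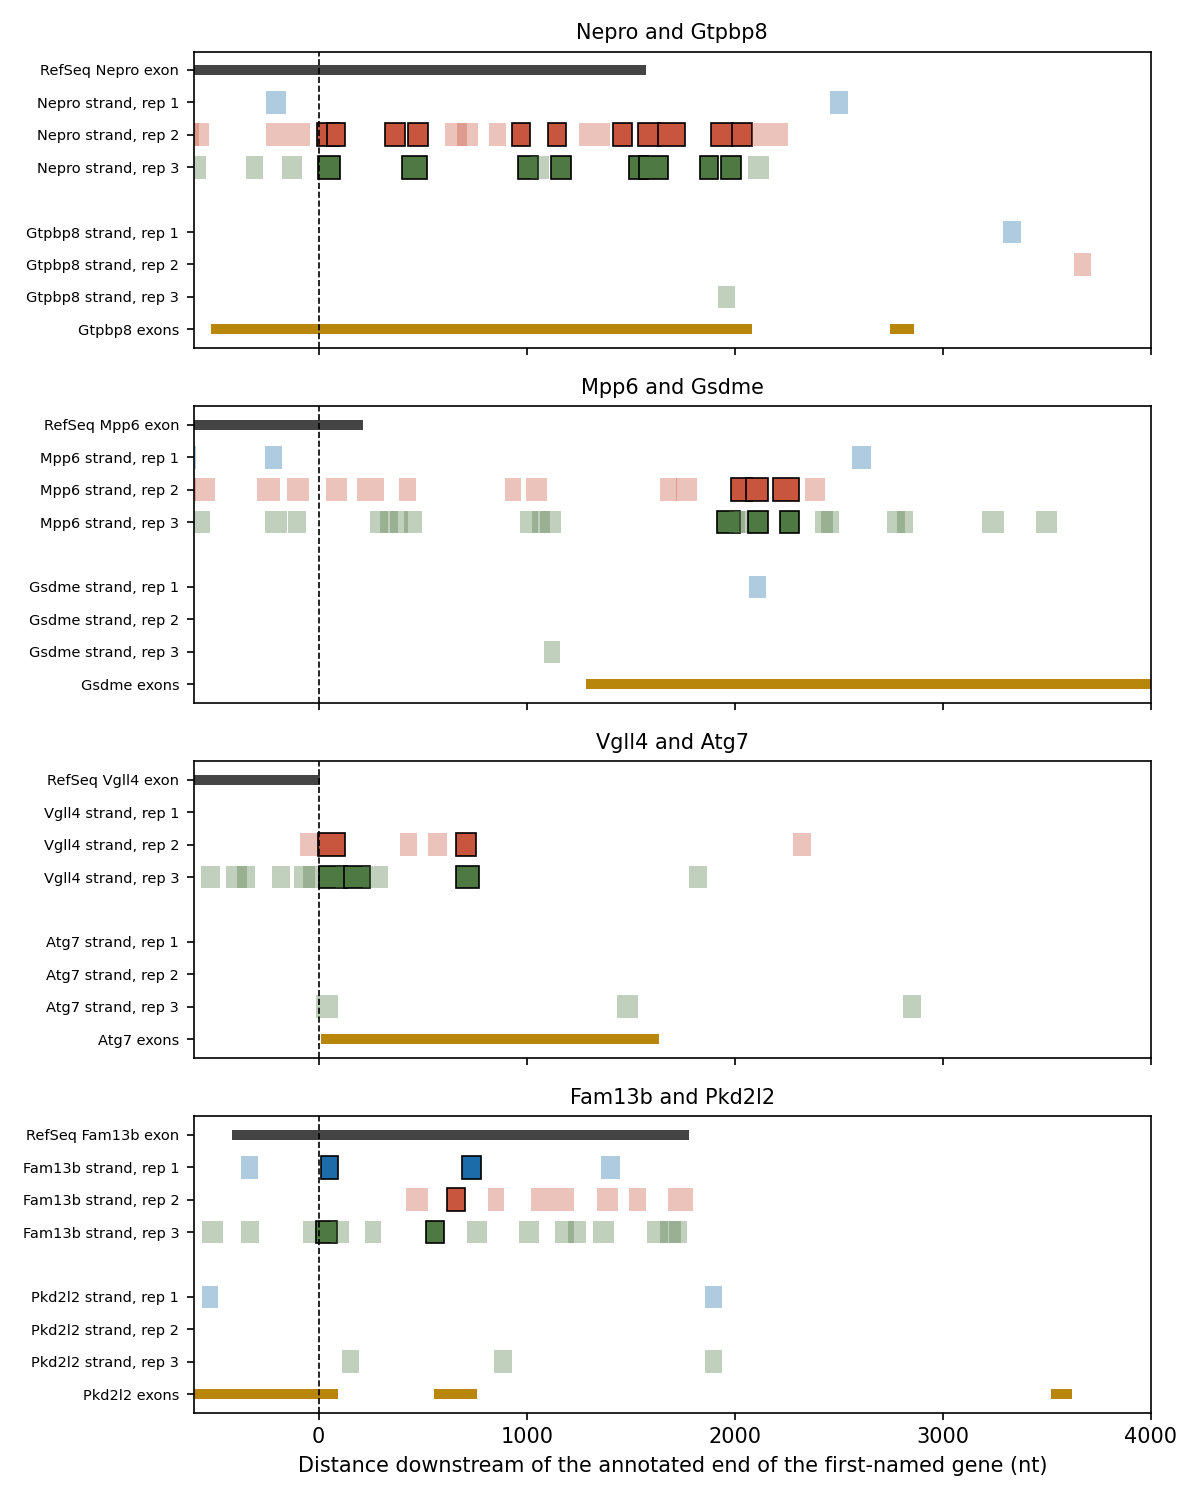
Maps of 4 convergent gene pairs by distance in nt downstream of the annotated end of the first-named gene (dashed line). Bars are peaks of any width on either strand in replicates 1 (blue), 2 (red) and 3 (green), outlined in black where they are members; dark grey bars are RefSeq exons of the first gene and gold bars exons of the opposite gene. Past Nepro, peaks of replicates 2 and 3 run to about the end of the Gtpbp8 exon, and past Fam13b they run to about the RefSeq end at 1780 nt.

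RefSeq, which the rule did not use, placed 14 of the 84 loci in an exon of a gene on the same strand by the midpoint of their widest member, and in all 14 it was the upstream gene. Counted by any member, there were 15. By library, this held for 3 of 40, 14 of 56 and 14 of 79 members (7.50%, 25% and 17.7%), against 0.994%, 4.88% and 2.88% of single-library peaks. The mean difference was 13.8 ± 6.87 percentage points (SD, n = 3), positive in 3 of 3 libraries (exact sign-flip permutation test, two-sided p = 0.25). Besides Nepro and Fam13b, the genes were Usp44, a deubiquitinase, opposite Metap2, the kinase Map3k3 opposite Limd2, the cell cycle and transcription kinase Cdk7 opposite Ccdc125, the receptor Gpr15 opposite Cpox, Entpd7 opposite Cox15, the phosphatase Mtmr7 opposite Vps37a, and Rnf214 opposite Bace1. Limd2 gave peaks of 124 nt in replicate 2 and 135 nt in replicate 3 that shared 107 nt, at 877 and 854 nt past Map3k3. Cdk7 was the most distant, 5539 to 5592 nt past the GENCODE end.

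Bace1, the beta-secretase of amyloid precursor protein, was the only host among 25 genes fixed as having described antisense transcripts, 4% of that list against 0.333% of 21911 protein-coding genes. Its locus, chr9:45861045-45861177 on the minus strand, had a peak of 89 nt in replicate 2 and of 93 nt in replicate 3 that shared 49 nt, and none in replicate 1. It was 2294 nt past the GENCODE end of Rnf214, within RefSeq's Rnf214 exon, and Rnf214 had sense 3′UTR peaks in all 3 libraries. Single-library antisense peaks fell opposite 6 of the 25, among them Gnas, Zeb2, Six3, Pax6 and again Bace1, which is 24% against 12.2% of all protein-coding genes. Of 25 abundant messenger RNAs none was a host of a member and 1, Ncl, of a single-library peak (4%). Of 16 miRNA pathway genes none was a host and 3 had single-library peaks (18.8%), Dgcr8, Ago2 and Cnot1.

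The loci with a peak in all 3 libraries were Foxh1, Akap9, Cfd and 1 of the Pkd2l2 loci, all within 5 kb of a gene end. Foxh1, a transcription factor of Nodal signalling, had the same interval of 86 nt in each library, shown above, at 867 nt past Kifc2, a kinesin. Neither Foxh1 nor Kifc2 had a sense 3′UTR peak. Akap9, an anchoring protein of the Golgi and centrosome, had an identical interval of 98 nt in replicates 1 and 2 and one of 87 nt in replicate 3, at chr5:4080501-4080635. It lay 558 and 601 nt past the end of Cyp51, a sterol demethylase with 3′UTR peaks in all 3 libraries. At Cfd, the complement factor D gene, the stretch covered in all 3 libraries was 90 nt, compared with 86 nt at Foxh1, 50 nt at Akap9 and 0 nt at the Pkd2l2 locus, although the members there came from replicate 3 only, since the other peaks failed the antisense condition.

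Exactly equal ends in 2 or more libraries were found at 12 loci, 5 of the 38 near a gene end and 7 of the 46 farther away. The longest was opposite Ank1, the erythroid ankyrin, where replicates 1 and 3 both had a peak of 169 nt at chr8:23132438-23132606. Replicates 2 and 3 both had the 140 nt interval opposite Tmem255a, 2513 nt past the zinc-finger gene Zbtb33, and replicates 1 and 2 both had one of 88 nt opposite Golm1, 65 nt past Naa35. What makes ends equal was not tested.

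The 46 farther loci were of mixed position. They lay opposite 20 3′UTRs, 8 coding exons, 7 5′UTRs and 11 noncoding exons, while the 38 near loci lay opposite 30 3′UTRs, 5 coding exons, no 5′UTR and 3 noncoding exons. Replicates 2 and 3 shared 24 near and 17 farther loci, whereas replicates 1 and 3 shared 8 near and 23 farther ones. Kansl1l, of the NSL acetyltransferase complex, had 2 loci 8649 and 15900 nt past Rpe.

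**Figure D4:**
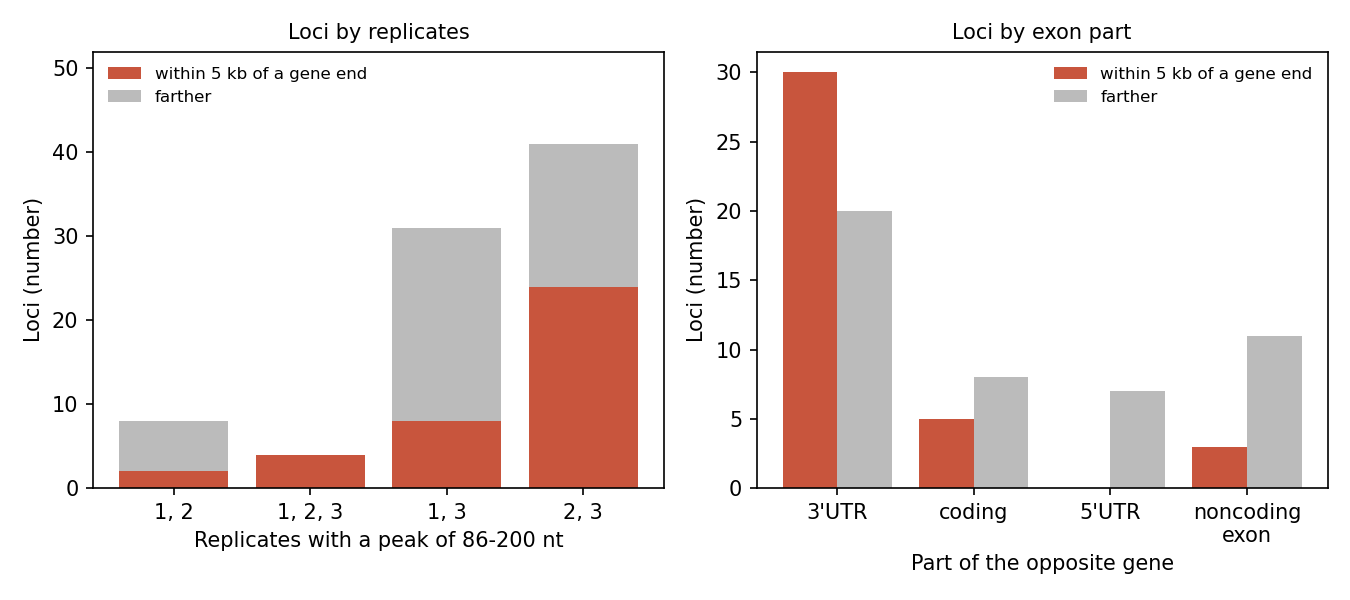
Number of loci by the replicates with a peak of 86 to 200 nt (left, stacked) and by the part of the opposite gene (right, side by side), for loci within 5 kb of a gene end (red) and farther away (grey). Near loci are 24 of 41 for replicates 2 and 3 and 8 of 31 for replicates 1 and 3, and none of the 7 loci opposite a 5′UTR is near a gene end.

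Some of the farther loci matched transcripts of other genes, mostly within repeats. A sequence at least 90% identical over 80% of the length to a transcript elsewhere, in the sense of that transcript, was found at 6 loci. Opposite the Khdrbs2 3′UTR the member matched Rps3a3, of the ribosomal protein S3a family, at 90.3% identity, and none of it was repeat-masked. Opposite Olfr784 and Kif24 the members matched Noct, at 98.9% and 100%, opposite Olfr93 Vmn2r79, at 91.7%, and opposite Bclaf1 AC132452.2, at 92.4%, and these 4 loci were wholly repeat-masked. Irak2 matched Klhl32 at 95.3% and was 85.1% masked. By library, 2.50%, 8.93% and 7.59% of members had such a match, compared with 2.98%, 2.93% and 2.95% of single-library peaks (difference 3.39 ± 3.42 points, n = 3, exact sign-flip permutation p = 0.5). Whether the reads came from the locus or from the matching transcript cannot be told from the peak calls.

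The remaining features differed less than the share near gene ends. Opposite 3′UTRs lay 50%, 71.4% and 58.2% of members and 47.5%, 47.8% and 46.5% of single-library peaks, a difference of 12.6 ± 10.6 points (n = 3, exact sign-flip permutation p = 0.25). Opposite coding sequence lay 17.5%, 12.5% and 16.5% against 19.5%, 21.3% and 17.9%, and with peaks of 90 to 200 nt the mean share of members fell from 15.5% to 3.98%. Opposite noncoding exons of protein-coding genes lay 22.5%, 10.7% and 16.5% against 25.4%, 22.6% and 27.1%, a difference of -8.49 ± 4.85 points that was negative in 3 of 3 libraries (exact sign-flip permutation p = 0.25). In the host's last exon lay 72.5%, 89.3% and 77.2% against 71.4%, 69.9% and 72.0%. A peak of the same library on the host's strand overlapped 10%, 16.1% and 16.5% of members and 10.1%, 19.2% and 22.9% of single-library peaks, which was no higher for members in any library, although without replicate 3 the mean difference turned to 3.73 points. GC content was 44.0%, 41.3% and 41.6% against 42.6%, 44.8% and 42.6%, higher in 1 library and lower in 2. The polyadenylation signal AATAAA occurred within the peak or up to 50 nt after it in 12.5%, 7.14% and 12.7% of members, fewer than among single-library peaks in all 3 libraries (14.8%, 12.2% and 15.6%). The opposite strand held it in 7.50%, 14.3% and 10.1% of members. No locus was within 1 kb of a miRNA hairpin on its strand in RefSeq, and the nearest was 10812 nt away.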

How the data were processed

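Per the labels, the 3 N2A libraries are replicates of 1 group. The deposited table gives peak start and stop positions and a score, in 3 libraries, for intervals padded by about 30 nt on each side. The deposited score is nearly constant and was not used. The submitters' processing notes name FastQC, cutadapt, STAR and mm10. The peak caller and its threshold are not given in the sources used here, and read depth is unknown, so no counting interval could be set.

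Peaks were assigned to GENCODE M21 genes by midpoint, with Python 3.11.15, pandas 2.3.3 and pysam 0.24.0. Members overlapped by at least 1 nt. Sequence matches to other genes came from blastn 2.17.0 against GENCODE transcripts, and RefSeq served as a second annotation (GRCm38). Differences were taken within each library and tested by exact sign-flip permutation. The choice of members and the sign-flip test were tested on simulated data. The members, lists and tests were chosen with earlier results of these data known. Names followed a rule: host genes and upstream genes of loci in all 3 libraries, and listed genes with a member. All others were named after their values were seen. Of the values tried otherwise, the closing section gives the effect. Some genes of the fixed lists are not reported here by name.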

Additional observations from a re-analysis of the deposited data

Results flagged for a closer look

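Peaks narrower than 86 nt or wider than 200 nt were outside the rule. At 11 of the 80 loci found in 2 libraries, the third library had a peak of such a width on the same strand, among them the loci opposite Khdrbs2, Metap2, Khnyn, Lrrc2 and Megf11.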

How the results depend on the processing

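The differences between members and single-library peaks in the share near a gene end kept their direction in 11 of 11 alternatives, with means of 10.5 to 78.8 percentage points. With 3 libraries no exact sign-flip permutation p can fall below 0.25, and peak depth is unknown. No paired analysis was possible because there is only 1 group, so replicate numbers match no samples across groups; members and single-library peaks were compared within each library. When central parts had to overlap, 1 locus had a member in each library. At widths of 90 to 200 nt there were 79 members and 36 loci, 0 of them with a member in all 3 libraries, 3.98% of members lay opposite coding sequence, and the difference in the library left out was -0.645 points. With exons of protein-coding transcripts only, 71.4% lay opposite 3′UTRs and 18.8% opposite coding sequence. Requiring a peak in all 3 libraries left 9 members at 4 loci. Shares of members in this section are means over libraries. By such means 36.1% lay opposite coding sequence (Foxh1 only), 100% in the last exon and 100% near a gene end. A sense peak overlapped 0%, 0% matched another transcript and 0% had AATAAA. The GC content of these members was 7.03 points above that of single-library peaks. The share near a gene end was 24.4% at 1 kb and 68.3% at 20 kb. Sense peaks of 86 to 200 nt overlapped 9.63% of members, 15.8% had such a match at 80% identity over 60% of the length, and 17.7% had AATAAA or ATTAAA. Leaving out members within 5 kb of a gene end left 93 members and 46 loci, 0 with a member in all 3 libraries. Leaving out members in a RefSeq gene on their strand, chosen after seeing the data, left 70 loci and a difference near gene ends of 16.2 points.

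Leaving out 1 library in turn gave 22 to 95 members and 11 to 44 loci. The share opposite 3′UTRs ran from 43.3% to 72.7%, opposite coding sequence from 9.09% to 22.4%, in the last exon from 65.7% to 100%, near a gene end from 31.3% to 63.2%, with a sense peak from 12.6% to 18.2%, with such a match from 0% to 10.5% and with AATAAA from 0% to 15%. The difference in sense peaks ran from -8.51 points to 3.73 points, positive without replicate 3, and that in GC content from -3.14 to 2.68 points, positive without replicate 2. The cause of these changes was not tested. A count over all 3 libraries has no value with 1 left out.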
